A study of Mus musculus with 24 samples.

Results

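The genes described here encode the oxidative phosphorylation machinery of mouse mitochondria, from both genomes. They were chosen by symbol as the protein-coding genes whose names begin with Nduf, Uqcr, Sdh (Sdha to Sdhd), Cox4 to Cox8, Atp5 or mt-, and no measured value entered that choice. This gave 106 of the 33364 genes in the count tables, of which 19137 are protein coding. Of the 106 members, 93 are nuclear genes and 13 lie on mitochondrial DNA. By the complex they belong to, the nuclear members comprised 36 subunits of complex I, 4 of complex II, 8 of complex III, 19 of complex IV and 16 of complex V. The other 10 are assembly factors of complex I (Ndufaf1 to Ndufaf8), the supercomplex factor Cox7a2l and the coupling factor Atp5s. The mitochondrial members comprised 7 subunits of complex I, 1 of complex III, 3 of complex IV and 2 of complex V.

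Oxidative phosphorylation takes place in the inner mitochondrial membrane. Complexes I and II pass electrons from NADH and succinate to ubiquinone, complex III hands them to cytochrome c, and complex IV gives them to oxygen. Complexes I, III and IV pump protons, and complex V, the ATP synthase, lets the protons flow back to make ATP. Neurons depend on it for the ATP that drives ion pumps and synaptic transmission, and fast-spiking parvalbumin interneurons are known for a high content of mitochondria. Complex II is built from nuclear genes alone, whereas the other complexes mix subunits of both genomes.

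The RNA came from punches of 2 cortical areas of C57BL/6 mice, the mPFC (medial prefrontal) and the ACC (anterior cingulate). The mice were 3 months old, female or male, and had undergone spared nerve injury (SNI) of the left hind leg, a model of neuropathic pain, or a sham operation 2 weeks earlier. Each of the 8 groups (female or male, sham or SNI, mPFC or ACC) held 3 libraries (24 altogether), for which tissue of several mice was pooled. The pool is therefore the unit of replication, and the p-values measure the spread between pools.

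The libraries held 23853845 to 32864391 counted reads. Levels are given as CPM, the reads of a gene scaled to a common library size after TMM normalization, and, between genes, as CPM per kilobase of the main transcript. Genes were tested with edgeR's quasi-likelihood F-test and called differentially expressed genes (DEGs) at FDR < 0.1 over all genes tested. Several libraries stood apart. In 5 libraries (male sham ACC replicate 3, male SNI ACC replicates 1 and 2, and female sham mPFC replicates 1 and 2) GC-rich transcripts were favoured, with slopes of 0.116 to 0.162 in log2 level per 10 percentage points of GC content, against -0.129 to 0.0659 in the other 19. Female sham ACC replicate 1 held 932 CPM of the choroid plexus transcripts Ttr and Kl, male SNI mPFC replicate 2 held 79.5 CPM, and the lowest library held 2.94 CPM. Summed markers of excitatory neurons (4699 to 5890 CPM), a class expected in cortex, were abundant in every library.

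The mitochondrial genome supplied more of the counted RNA than all 93 nuclear members combined. The 13 mitochondrial members summed to between 13359.8 and 20449.6 CPM per library, and the nuclear members to between 6593 and 7686 CPM. The ratio of the former to the latter ranged from 1.92 to 2.94. On the counts as deposited, a few transcripts made up most of the mitochondrial sum: mt-Co1, the catalytic subunit of complex IV, held 41.1% of it, and the membrane-arm subunits of complex I mt-Nd4 and mt-Nd5 held 25.1% and 17.7%. By contrast, mt-Cytb, the only mitochondrial subunit of complex III, held 0.0631%, and mt-Nd1 was all but missing from the tables. Per kilobase mt-Cytb reached 9.71 CPM, against 3201 CPM for mt-Nd4. Whether this low count reflects the level of mt-Cytb or the counting of its reads was not tested. Its differences given below carry that limit.

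Per kilobase and with reads of copies left out, mt-Co1 reached a mean level of 4686 CPM, mt-Nd4 3201 CPM and mt-Nd5 1705.0 CPM. The highest nuclear member, Atp5b, which encodes the catalytic beta subunit of the ATP synthase, reached 468 CPM per kilobase. It was followed by Cox4i1 at 396, Cox6a1 at 342 and Cox8a at 332 CPM per kilobase, which are structural subunits of complex IV, and by Atp5a1, the alpha subunit of the synthase, at 305. The median nuclear level was 43.5 CPM per kilobase for complex I, 56.3 for complex II, 70.7 for complex III, 102 for complex IV (over 16 of its 19 members) and 86.3 for complex V. Assembly factors and other members lay lower, at a median of 9.83 CPM per kilobase. The nuclear subunits of the cytochrome oxidase and of the synthase thus stood above those of complex I on this scale.

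The paralogues known from muscle, lung or testis were low in both regions. Cox4i2 had 1.21 CPM per kilobase against 396 for its common partner Cox4i1, and Cox6a2 had 4.14 against 342 for Cox6a1. Cox6b2 had 0.906 CPM per kilobase against 114 for Cox6b1, Cox7a1 had 0.576 against 88.6 for Cox7a2, and Ndufa4l2 had 2.13 against 138 for Ndufa4. Of the 106, 5 members did not pass the filter on low counts and were not tested. These were Cox8c with a mean of 0.0417 reads per library, mt-Nd1 with 0.0833, Cox8b with 0.917, Cox7b2 with 1.75 and Cox7a1 with 6.08. The floor was set at 3 reads, and every library of a group was at or below it in 8 of 8 groups for mt-Nd1 and Cox8c, and in 6 groups for Cox7b2 and Cox8b. No library held more than 1 read of mt-Nd1, although its neighbour on the same strand, mt-Nd2, reached 262 to 571 CPM, so the mt-Nd1 values cannot be read as a level of that transcript.

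Several mitochondrial members shared their reads with a near-identical copy in the nuclear genome. A block of mitochondrial sequence lies on the minus strand of chromosome 1 (GRCm38), and its genes took 78.9% of the reads shared by mt-Atp6 and its copy Gm10925, 81.6% of those of mt-Co2 and Gm28661, 81.8% of those of mt-Co3 and Gm28437, and 67.5% of those of mt-Nd4l and Gm10222. The copy share was 26.6% for mt-Nd3 with Gm28438 and 10.7% for mt-Co1 with Gm29216. With the reads of the copies added, mt-Co1 held 30.5% of the mitochondrial sum, mt-Nd4 16.6%, mt-Co3 13.01%, mt-Atp6 11.95%, mt-Nd5 11.7% and mt-Co2 11.5%. Per kilobase mt-Atp6 (4653 CPM), mt-Co2 (4466 CPM) and mt-Co3 (4401 CPM) then stood above mt-Nd4 (3201 CPM) and below mt-Co1 (5241 CPM), so the order of the levels depends on how these reads are divided. Stretches of 60 bases from 3 pairs show how alike the members and their copies are, with capitals marking bases that differ within the pair. The mt-Co2 stretch lies at chrM:7323-7382 on the plus strand and its copy at chr1:24615196-24615255, and the pair was identical over all 681 aligned bases.
mt-Co2: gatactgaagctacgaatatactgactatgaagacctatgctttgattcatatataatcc
Gm28661: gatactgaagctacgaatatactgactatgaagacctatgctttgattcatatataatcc
The mt-Co1 stretch lies at chrM:6381-6440 and its copy at chr1:24616138-24616197. Counted from 1 at the 5′ end of the mt-Co1 transcript, they differ at T1056A, C1057T, A1059G, A1060G, C1062A and A1066T, which are the 6 differences in 492 aligned bases.
mt-Co1: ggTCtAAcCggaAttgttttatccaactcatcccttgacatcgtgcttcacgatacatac
Gm29216: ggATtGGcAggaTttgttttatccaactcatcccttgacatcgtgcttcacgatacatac
The mt-Nd3 stretch lies at chrM:9459-9518 and its copy at chr1:24613060-24613119, with T3C as the single difference in 345 aligned bases.
mt-Nd3: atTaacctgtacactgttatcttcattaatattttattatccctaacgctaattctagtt
Gm28438: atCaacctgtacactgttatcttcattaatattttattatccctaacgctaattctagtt
Among the nuclear members, Gm10175 took 85.2% of the reads it shared with Atp5g2, a c-subunit gene of the synthase, Ndufb4c took 53.5% of those shared with Ndufb4, and Gm10221 took 5.35% of those shared with Atp5l.

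The first comparison asked how the mPFC and the ACC differ in these genes over all 24 libraries. Among the nuclear members, 43 of 89 were called lower in the mPFC and 2 higher. The lower calls were mostly small steps and fell in all 5 complexes, whereas the mitochondrial members did not share a direction. Of the 101 members tested (89 nuclear, 12 mitochondrial), 45 were lower in the mPFC and 3 were higher. Of all 18078 genes tested, 24.7% were called lower and 24.3% higher. The median log2 difference (mPFC minus ACC) was -0.08 over the nuclear members, of which 73 of 89 lay below 0. Over the mitochondrial members it was -0.07, against 0.003 over all genes. When a library was left out, the mitochondrial median ran from -0.12 (without female sham mPFC replicate 3) to -0.03 (without male SNI ACC replicate 3). Without the library that held the most choroid plexus RNA, 42 members were lower and 4 higher. In bulk tissue, fewer cells of a type and less RNA per cell cannot be told apart.

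The summed nuclear members separated the regions. Their sum ranged from 6593 to 7166 CPM over the 12 mPFC libraries (median 6845) and from 7195 to 7686 CPM over the 12 ACC libraries (median 7308), so no mPFC library reached the lowest ACC library. The 16 complex V genes did the same, at 2489 to 2665 CPM (median 2569.5) in the mPFC and 2755 to 2905 CPM (median 2804) in the ACC. The sums of the other complexes were also lower at the median, but their ranges overlapped: 1599 to 1787 against 1753 to 1903 CPM for complex I, 529 to 583 against 565 to 593 for complex II, 582 to 642 against 639 to 680.0 for complex III and 1103 to 1365 against 1234 to 1403 for complex IV. The summed mitochondrial members overlapped widely, at 13359.8 to 19974 CPM (median 17381) in the mPFC and 14373 to 20449.6 CPM (median 19289.5) in the ACC. With the chromosome 1 and other copies added they still overlapped, at 20269 to 31021 against 22046 to 30383 CPM.

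**Figure D1:**
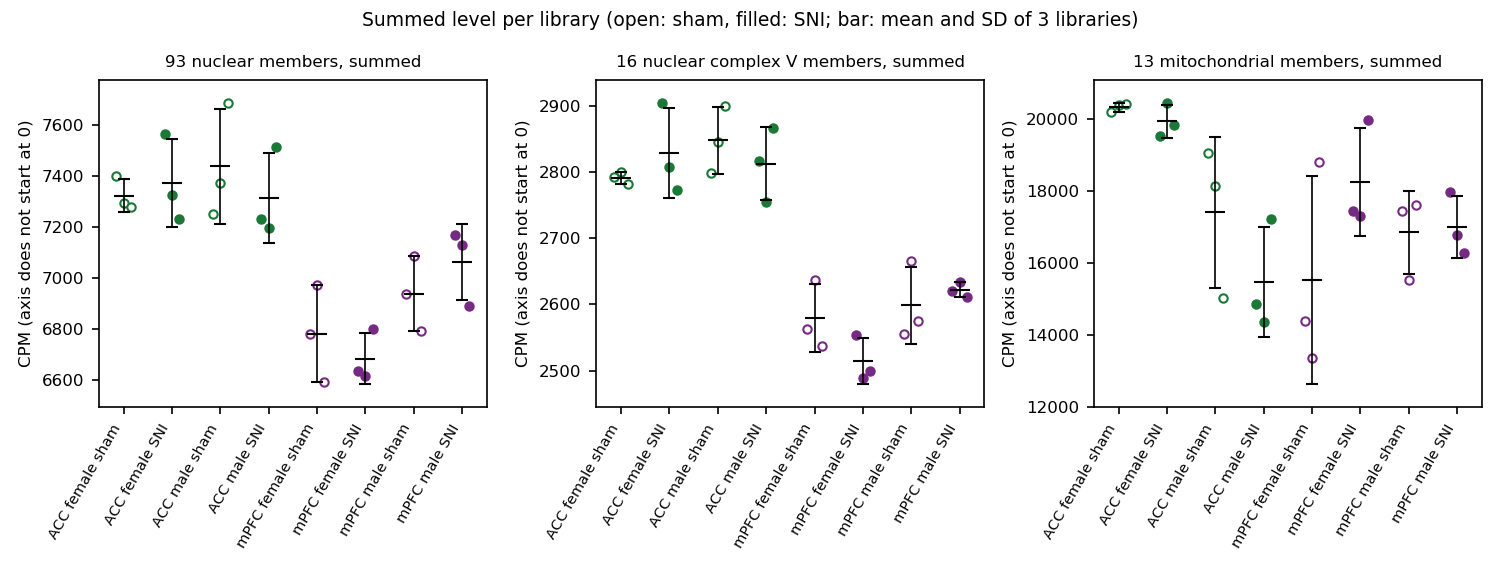
Summed CPM of the 93 nuclear members, of the 16 nuclear complex V members and of the 13 mitochondrial members in each library (points; open for sham, filled for SNI), with the mean and SD of each group of 3; the axes do not start at 0. The nuclear sums of the mPFC end at 7166 CPM, below the lowest ACC library at 7195 CPM, whereas the mitochondrial sums of the regions overlap.

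Complex I, the NADH dehydrogenase, had 13 of 36 tested nuclear subunits lower and 1 higher. Ndufb5, an accessory subunit of the membrane arm, ranged from 48.9 to 55.6 CPM (median 51.7) in the mPFC and from 52.1 to 63.7 CPM (median 58.6) in the ACC, with overlapping ranges. Its log2 difference was -0.17 (SE 0.03, adjusted p = 1.2e-05). The flavoprotein and iron-sulfur subunits Ndufv2 and Ndufs1 differed by -0.19 and -0.20 and were called as well. The accessory subunit Ndufa3 went the other way, with medians of 17.1 CPM in the mPFC and 15.8 CPM in the ACC and a difference of 0.14 (SE 0.06, adjusted p = 0.0759). That call was lost after correction for GC content (adjusted p = 0.109) and without the 5 GC-trended libraries (adjusted p = 0.157). It was also lost with a replicate block and in 14 of the 24 fits that left out a library. Ndufv3, a small flavoprotein subunit, had a difference of 0.09 (SE 0.04, adjusted p = 0.117) and was not called.

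All 4 subunits of complex II, the succinate dehydrogenase of the citric acid cycle, were lower in the mPFC. Sdhc, a membrane anchor, ranged from 42.7 to 48.0 CPM (median 44.6) in the mPFC and from 48.3 to 54.0 CPM (median 51.2) in the ACC. The regions did not overlap, and the log2 difference was -0.20 (SE 0.02, adjusted p = 3.36e-07). The other anchor Sdhd differed by -0.07 (SE 0.02, adjusted p = 0.0285), the iron-sulfur subunit Sdhb by -0.07 (adjusted p = 0.0285) and the flavoprotein Sdha by -0.04 (adjusted p = 0.0705).

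In complex III, the cytochrome bc1 complex, 4 of 8 nuclear subunits were lower and 1 was higher. The core protein Uqcrc1 had medians of 195 CPM in the mPFC (179.5 to 204) and 214 CPM in the ACC (200.3 to 236). It differed by -0.16 (SE 0.03, adjusted p = 3.5e-05). The Rieske iron-sulfur protein Uqcrfs1 had medians of 86.1 and 93.1 CPM and differed by -0.12 (SE 0.02, adjusted p = 0.000347). Uqcr11, a small accessory subunit, differed by 0.14 (SE 0.06, adjusted p = 0.0931). This call was lost after the GC correction (adjusted p = 0.21) and without the 5 GC-trended libraries (adjusted p = 0.138). The replicate block and 14 of the 24 fits that left out a library lost it as well.

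In complex IV, the cytochrome c oxidase, 6 of 15 tested nuclear subunits were lower and none was higher (DESeq2 gave the same counts in all 6 nuclear classes). The largest difference among nuclear members was that of Cox6a2, a paralogue best known from muscle, which ranged from 1.56 to 3.05 CPM (median 2.25) in the mPFC and from 2.60 to 4.17 CPM (median 3.32) in the ACC. Its log2 difference was -0.52 (SE 0.10, adjusted p = 0.00015), at a level far below its common partner Cox6a1. Cox5a, a subunit on the matrix side of the enzyme, had medians of 60.1 and 72.3 CPM and differed by -0.26 (SE 0.03, adjusted p = 1.87e-07). Cox5b (0.04, adjusted p = 0.556) and the lung-type paralogue Cox4i2 (0.13, adjusted p = 0.536) had values above 0 and were not called.

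Complex V had the highest share of lower subunits among the larger complexes, 10 of 16, with none higher. Atp5b ranged from 801 to 887 CPM (median 837) in the mPFC and from 923 to 995 CPM (median 942) in the ACC without overlap, a log2 difference of -0.18 (SE 0.02, adjusted p = 2.85e-07). Atp5c1, the central-stalk gamma subunit, had medians of 119 and 136 CPM and differed by -0.19 (SE 0.02, adjusted p = 7.19e-07). The peripheral-stalk subunit Atp5f1 differed by -0.26. Atp5k, an accessory subunit (0.19, SE 0.12, adjusted p = 0.201), and Atp5g2 (0.15, SE 0.09, adjusted p = 0.204) had values above 0 and were not called. With its copy Gm10175 added, Atp5g2 differed by 0.02, and with Ndufb4c added, the complex I subunit Ndufb4 moved from -0.12 (adjusted p = 0.0679) to -0.005 (adjusted p = 0.933).

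Of the 10 assembly factors and other members, 6 were lower and none was higher. Ndufaf4, an assembly factor of complex I, ranged from 16.9 to 22.9 CPM (median 20.5) in the mPFC and from 18.7 to 29.2 CPM (median 25.7) in the ACC, a log2 difference of -0.29 (SE 0.06, adjusted p = 0.00018). Ndufaf5, which modifies a core subunit during assembly, differed by -0.18 (SE 0.04, adjusted p = 0.000347). Ndufaf8 had a value of 0.04 (adjusted p = 0.612). Over all classes, 3 members (Atp5b, Sdhc and the complex I subunit Ndufa9) were lower in every mPFC library than in any ACC library, and 0 members were higher in every one. Of all genes tested, 2.3% were lower and 2.56% higher without overlap.

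**Figure D2:**
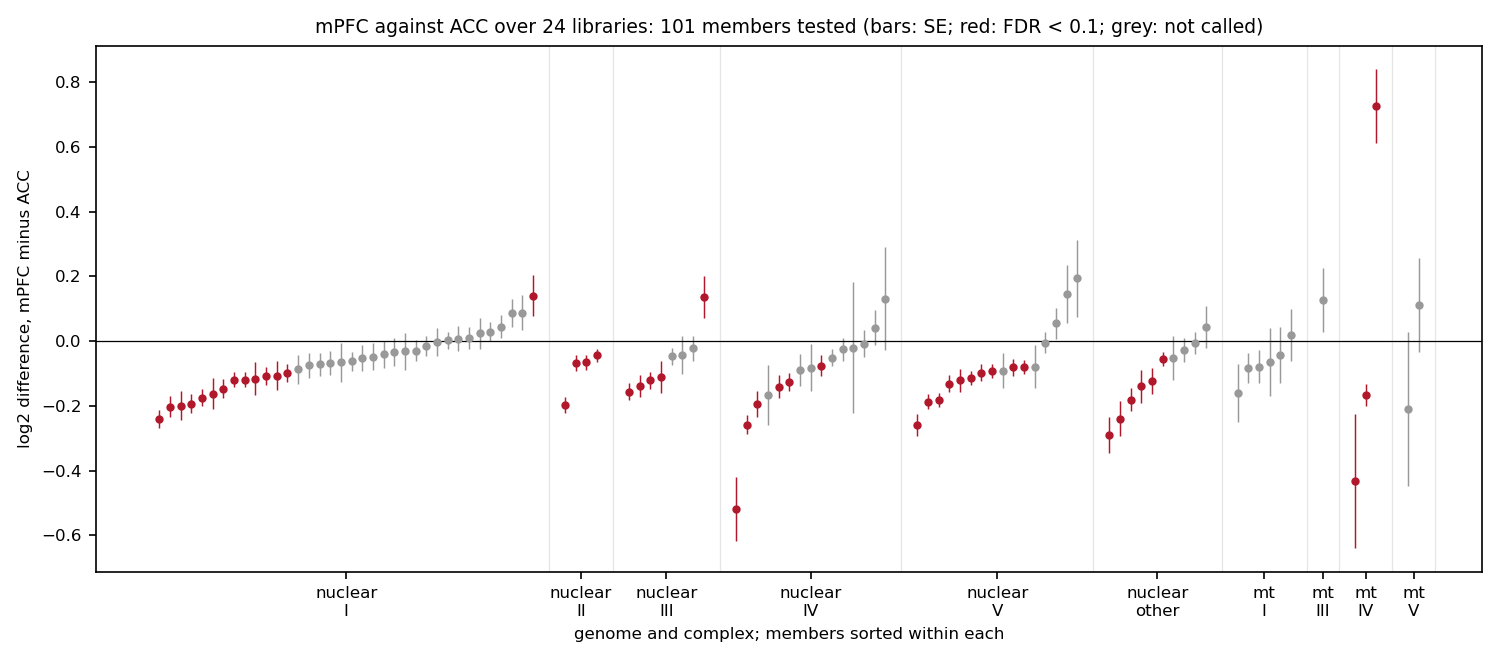
Log2 difference (mPFC minus ACC, 24 libraries) with its SE for each of the 101 members tested, grouped by genome and complex and sorted within each group; red marks FDR < 0.1. Nuclear members lie mostly below 0, with Cox6a2 lowest at -0.52, and the highest point is the mitochondrial gene mt-Co2 at 0.73.

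The mitochondrial members gave 3 calls, all in complex IV and in both directions. The oxidase subunit mt-Co2 ranged from 362 to 1117 CPM (median 721) in the mPFC and from 358 to 468 CPM (median 418) in the ACC, a log2 difference of 0.73 (SE 0.11, adjusted p = 1.65e-05). The catalytic subunit mt-Co1 ranged from 5768 to 7626 CPM (median 6881) against 6344 to 8247 CPM (median 8010.5) and differed by -0.17 (SE 0.03, adjusted p = 0.000321). The third oxidase subunit, mt-Co3, ranged from 284 to 833 CPM (median 468) against 122 to 1045 CPM (median 839) and differed by -0.43 (SE 0.21, adjusted p = 0.0994), a call that DESeq2 did not make (adjusted p = 0.138). It was lost in 18 of the 24 fits that left out a library, and the difference was -0.24 without male SNI ACC replicate 3. The other 9 lay between -0.21 for the synthase subunit mt-Atp6 and 0.13 for mt-Cytb and were not called. The value of mt-Atp6 was -0.55 and called without female sham mPFC replicate 3 (adjusted p = 0.0112), and -0.04 without male SNI ACC replicate 3. Of the 24 fits that left out a library, mt-Nd3 and mt-Nd4 were called in 3 each and mt-Nd5 in 4, among them the fits without female sham mPFC replicate 3, female SNI mPFC replicate 3 or male sham ACC replicate 3. The other 9 included the complex I subunits mt-Nd2 (0.02), mt-Nd3 (-0.16), mt-Nd4 (-0.08), mt-Nd4l (-0.06), mt-Nd5 (-0.08) and mt-Nd6 (-0.04), the last of which is transcribed from the opposite strand, and the synthase subunit mt-Atp8 (0.11).

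The mt-Co2 call did not hold once reads of its identical copy were included. Gm28661 ranged from 1731 to 2821 CPM (median 2217) in the mPFC and from 1988 to 3215 CPM (median 2934) in the ACC, opposite in direction to mt-Co2. The sum of both ranged from 2301 to 3659.8 CPM (median 2989) in the mPFC and from 2409 to 3590.0 CPM (median 3365) in the ACC. It differed by -0.08 (SE 0.05, adjusted p = 0.219). For mt-Co3 with its copy the difference was -0.09 (adjusted p = 0.123), and for mt-Co1 with its copy it was -0.13 (adjusted p = 0.00306), so mt-Co1 was the only mitochondrial member called on the summed reads (by DESeq2 on the unsummed reads, mt-Co1 and mt-Co2 were called).

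**Figure D3:**
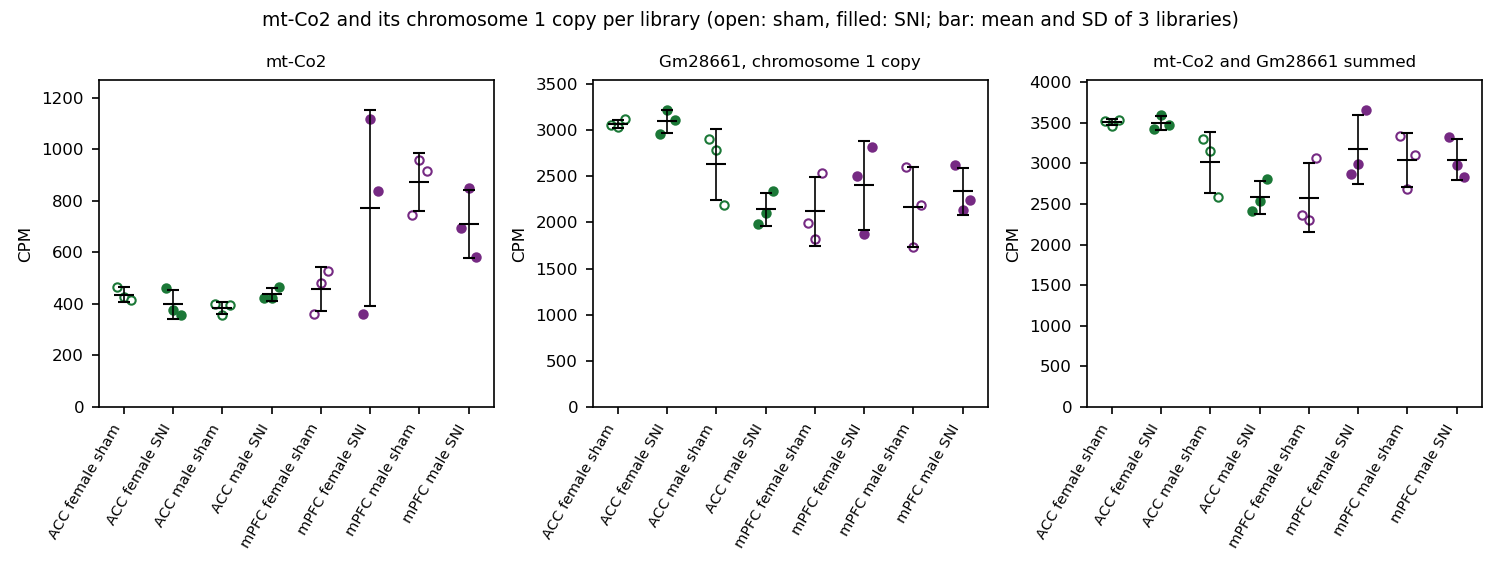
CPM of mt-Co2, of its chromosome 1 copy Gm28661 and of their sum in each library (points; open for sham, filled for SNI), with the mean and SD of each group of 3. The mt-Co2 level reaches 1117 CPM in the mPFC and stays at or below 468 CPM in the ACC, whereas the sums overlap between the regions (2301 to 3659.8 and 2409 to 3590.0 CPM).

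Promoters of the nuclear members were read from the RefSeq table (GRCm38.p6), which held 74 of the 93 by symbol. NRF1, GABPA and the estrogen-related receptors (ERR) are factors known to act on respiratory chain genes, and their motifs were searched on both strands in 300 bases around the start (250 before, 50 after). The NRF1 motif (GCGCA, any base, GCGC) was found in 19 members (25.7%), against 5.19% of the 27025 genes in the table. The GABPA motif CCGGAAGT was found in 5 members (6.76%, against 4.31%), and the ERR motif TCAAGGTCA in 2 members, Atp5g3 and Sdhd (2.7%, against 0.466%). Of the 33 matched members that were lower in the mPFC, 11 held the NRF1 motif, as did 8 of the other 41. A single promoter is shown for each motif, from members that were lower in the mPFC, as the 250 bases before the start with the match in capitals. Ndufaf4 lies at chr4:24897833-24898082 on the plus strand, Uqcrh, the hinge protein of complex III (-0.14, adjusted p = 0.00212), at chr4:116075071-116075320 on the minus strand, and Atp5g3, a c-subunit gene of the synthase (-0.11, adjusted p = 0.000118), at chr2:73911327-73911576 on the minus strand.
Ndufaf4 (NRF1): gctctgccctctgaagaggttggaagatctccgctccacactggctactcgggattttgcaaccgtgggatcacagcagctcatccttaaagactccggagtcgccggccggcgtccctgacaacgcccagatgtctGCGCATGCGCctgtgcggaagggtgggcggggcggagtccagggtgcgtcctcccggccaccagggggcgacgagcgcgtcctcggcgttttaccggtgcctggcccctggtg
Uqcrh (GABPA): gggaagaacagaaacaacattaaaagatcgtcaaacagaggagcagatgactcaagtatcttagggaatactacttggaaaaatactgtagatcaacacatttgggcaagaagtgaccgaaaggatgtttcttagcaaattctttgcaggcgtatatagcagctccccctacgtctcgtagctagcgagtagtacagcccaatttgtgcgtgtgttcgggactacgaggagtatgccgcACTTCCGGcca
Atp5g3 (ERR): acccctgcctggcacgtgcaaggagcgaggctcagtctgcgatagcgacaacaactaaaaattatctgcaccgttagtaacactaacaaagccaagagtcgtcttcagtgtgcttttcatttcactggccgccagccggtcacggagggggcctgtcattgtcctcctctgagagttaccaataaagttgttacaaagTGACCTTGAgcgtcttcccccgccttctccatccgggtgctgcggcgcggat
A match describes these letters and does not show that a factor binds there.

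Genes that work beside the members are given by list for the same region comparison, to be read against the 24.7% of all genes that were called lower and the 24.3% called higher. Of 20 tested genes of the citric acid cycle, 17 were lower in the mPFC and 0 were higher, with a median of -0.16, among them the malate dehydrogenase Mdh1 (-0.22) and the isocitrate dehydrogenase subunit Idh3a (-0.20). Of 22 genes of mitochondrial carriers and membranes, 16 were lower and 3 higher, among them the adenine nucleotide translocator Slc25a5 (-0.27) and the pyruvate carrier Mpc1 (-0.30). Of 40 further assembly factors and partners, 16 were lower and 2 higher, including the synthase assembly factor Atpaf1 (-0.29) and the complex II factor Sdhaf3 (-0.32). Regulators of mitochondrial biogenesis had 8 of 16 lower and 2 higher, with Ppargc1a, a coactivator of respiratory genes, at -0.57 (adjusted p = 7.87e-11) and Esrrg at -0.67 (adjusted p = 1.13e-09). Genes of mitochondrial DNA expression had 2 of 18 lower and 0 higher, namely the transcription factors Tfam (-0.12) and Tfb2m (-0.16). Glycolysis was mixed, with 9 of 19 higher and 6 lower, from the glucose transporter Slc2a3 (0.35) to the lactate dehydrogenase Ldhb (-0.29).

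Markers of several cell types differed between the regions, some lower in the mPFC as most members were and others higher. All 3 parvalbumin interneuron genes were lower in the mPFC (Pvalb -1.72, Syt2 -2.49, Kcnc1 -0.36), and their sum ran from 205 to 281 CPM in the mPFC and from 324 to 445 CPM in the ACC. All 3 general inhibitory markers were lower (495 to 538 against 580 to 654 CPM), as were 6 of 6 oligodendrocyte markers (1023 to 3560 against 2367 to 3875 CPM) and 3 of 3 endothelial markers (129 to 157 against 160 to 193 CPM). Summed fibroblast markers had medians of 20.1 CPM in the mPFC against 30.2 CPM in the ACC, mural markers 97.6 against 126 CPM and astrocyte markers 1487 against 1568 CPM. Microglial markers (175 against 161 CPM) and those of oligodendrocyte precursors (101.1 against 96.1 CPM) had the higher median in the mPFC. Excitatory markers had 1 of 4 higher and 0 lower (4937 to 5890 against 4699 to 5669 CPM). Their part in the result on the members was not tested, and region cannot be told apart from any handling that went with it.

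Within single groups of 3 against 3 pools, the median region difference of nuclear members was below 0 in 3 of 4 settings and near 0 in the other. Among female sham mice 33 nuclear members were lower and 0 higher (14.5% and 14% of all genes), among female SNI mice 29 and 0 (13.9% and 13.7%), among male sham mice 5 and 0 (6.7% and 7.46%), and among male SNI mice 7 and 9 (10.6% and 10.4%). The nuclear medians were -0.14, -0.11, -0.05 and 0.01 in that order, and the last ran from -0.03 (without male SNI ACC replicate 1) to 0.05 (without male SNI ACC replicate 3) when a library was left out. With GC content corrected, 20 nuclear members were lower among the male sham mice, and with GC content and length 27, where 13.1% and 13.4% of all genes were called lower. Atp5b differed by -0.10, -0.22, -0.19 and -0.19, so this subunit kept its direction, although in the female sham mice it was not called (adjusted p = 0.168). Among the male SNI mice 17 members were higher and 7 lower on the counts as deposited, 19 and 9 with GC content corrected, and 11 and 22 with GC content and length corrected. Of all genes, 13% were higher and 12.7% lower under the former correction, and 13.2% and 12.8% under the latter. The male SNI members that were higher included the small subunits Atp5k (0.64), Ndufa3 (0.49) and Uqcr11 (0.39).

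The mitochondrial members had opposite signs in these groups. Among female sham mice 10 of 12 were lower in the mPFC (median -0.52), and among male SNI mice 8 were higher (median 0.46). Among female SNI mice 2 were lower and 1 higher (median -0.10), and among male sham mice only mt-Co2 was called, as higher (median 0.01). When a library was left out, the female SNI median ran from -0.28 (without female SNI mPFC replicate 3) to -0.03 (without female SNI mPFC replicate 1), and the male sham median from -0.11 (without male sham ACC replicate 3) to 0.09 (without male sham ACC replicate 1). With copies summed, 0 mitochondrial members were called among male sham mice, where mt-Co2 went from 1.19 to 0.02. Among female SNI mice 1 was then lower and 0 higher. In the other groups the count rose, to 12 lower among female sham mice and 10 higher among male SNI mice. The complex I gene mt-Nd2 shows the opposite signs. It stood at 440.2, 419 and 415 CPM in the female sham ACC and at 276, 262 and 335 CPM in the female sham mPFC. In the male SNI ACC it stood at 274, 308 and 337 CPM, and in the male SNI mPFC at 467, 422 and 385 CPM. Neither pair of groups overlapped. The counts of members called were 28 without female sham ACC replicate 2 (main count 43), and 13 to 15 without male SNI mPFC replicate 1 or 2 or male SNI ACC replicate 1 (main count 24). In the male sham mice (main count 6), leaving out any single library gave 1 to 3, except male sham ACC replicate 3, without which there were 21.

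Transcript GC content went along with these values. The 13 mitochondrial transcripts hold 31.9% to 41.1% GC (median 37.1%), the 93 nuclear ones 36.7% to 63.3% (median 50.02%) and all genes tested a median of 49.2%. The 5 libraries that favoured GC-rich transcripts had the 5 lowest mitochondrial sums, 13359.8 to 15031 CPM, against 15531 to 20449.6 CPM in the other 19. Over all other genes, the rank correlation of GC content with the region difference (n = 16632 to 16815 genes) was 0.47 in the female sham mice, 0.02 in the male sham, 0.09 in the female SNI and -0.14 in the male SNI mice. These describe genes of the same libraries, which are not independent replicates.

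GC content was corrected within each library (a lowess curve of log2 level on GC content). This made the mitochondrial medians of the female sham and male SNI mice smaller. Among the female sham mice the correction left 5 mitochondrial members lower and 1 higher, in place of 10 and 0. Among the male SNI mice 7 were higher, in place of 8, and 6 with length corrected too. The male sham mice had 1 higher and 2 lower, in place of 1 and 0, and the female SNI mice had 1 and 2 with and without it. In the female sham mice the median moved from -0.52 to -0.21, and in the male SNI mice from 0.46 to 0.34. With length corrected too, they came to -0.16 and 0.19. Single members moved by different amounts: in the female sham mice mt-Nd5 went from -0.30 to 0.001 and mt-Nd4 from -0.38 to -0.05, whereas mt-Nd3 went from -0.97 to -0.60 and mt-Nd4l from -0.74 to -0.55, and both of the latter were still called (adjusted p = 0.000393 and 0.0115).

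The nuclear members were also counted over 24 libraries under the correction. With GC content corrected, 48 nuclear members were lower and 0 higher, with GC content and length 56 and 0, and without the 5 libraries 49 and 0. Of all genes, 25.9%, 26.2% and 22.5% were then called lower, against 24.7% on the counts as deposited. Of the 48 members called on the counts as deposited, 44 were also called under the GC correction. In each band of GC content the median of the nuclear members lay below that of the other genes: -0.18 (4 members) against -0.03 under 40% GC, -0.13 (13) against -0.04 at 40% to 45%, -0.08 (26) against -0.01 at 45% to 50%, -0.08 (29) against 0.03 at 50% to 55%, and -0.01 (17) against 0.05 from 55% up. The band under 40% rests on 4 members.

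**Figure D4:**
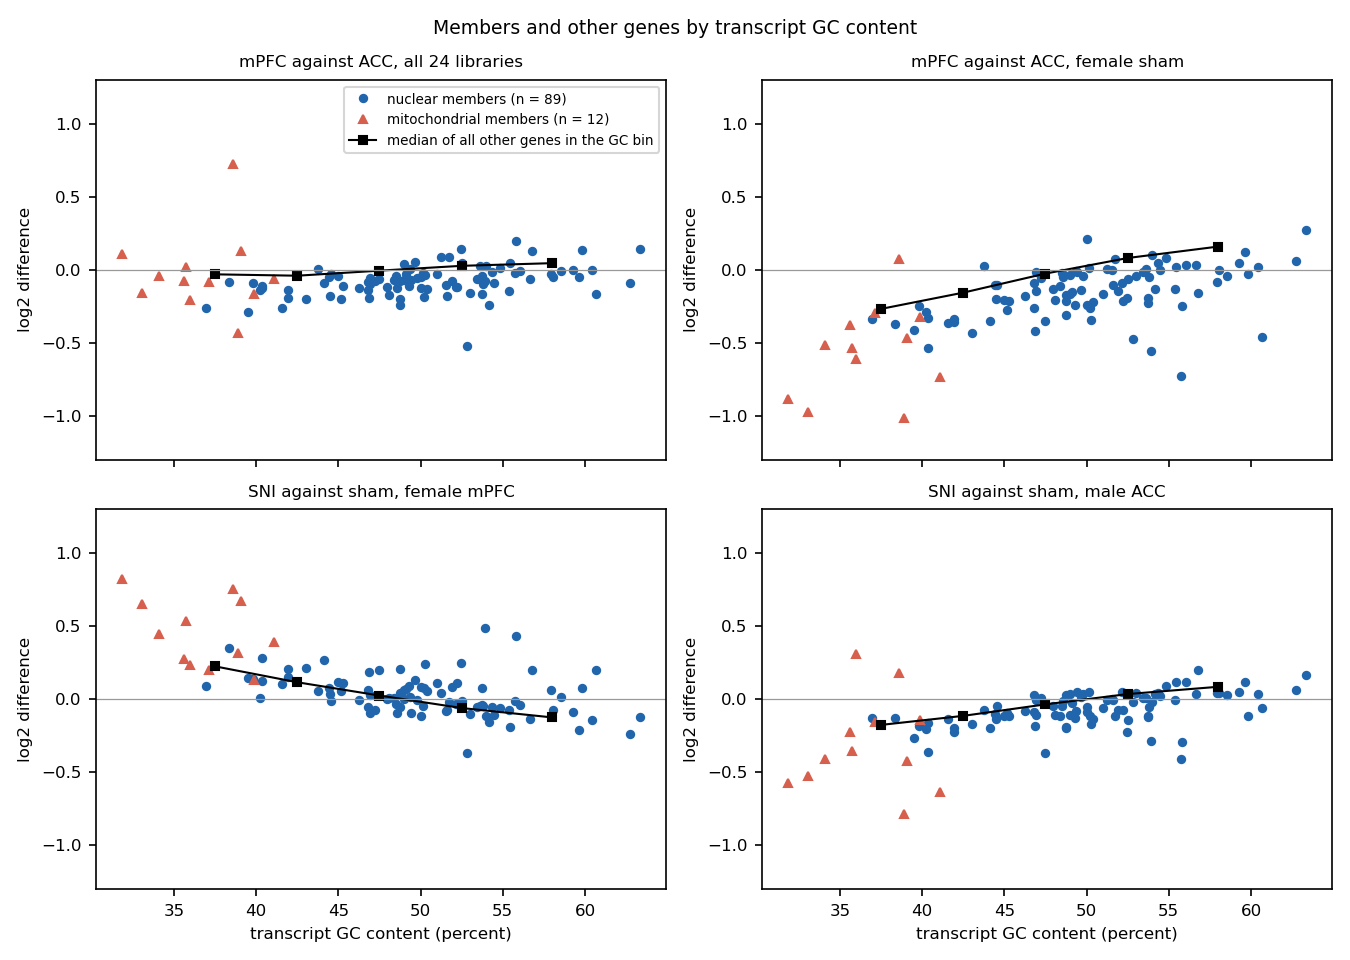
Log2 difference of each nuclear (blue circles) and mitochondrial (red triangles) member against transcript GC content in 4 comparisons, with the median of all other genes per GC band in black (n = 89 and 12 members). Over the 24 libraries the median of the nuclear members lies below the black line in every band, with single members such as Atp5k at 0.19 above it, and in the 3 comparisons of single groups the line itself is tilted, falling from 0.23 to -0.12 in the female mPFC after SNI.

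The second comparison asked whether SNI changed these genes. No member was called in any group: in the mPFC, 0 of 101 in females, where 0.00592% of all genes were called, and 0 in males (0.494%), and in the ACC, 0 in females (0.024%) and 0 in males (0.00599%). At an unadjusted p under 0.05, edgeR gave 9 nuclear and 7 mitochondrial members in the mPFC of females and 5 and 1 in that of males, and in the ACC 3 and 1 in females and 6 and 8 in males. The shares of all genes at that threshold were 12.1% and 11.2% in the mPFC of females and males, and 6.67% and 4.48% in their ACC. DESeq2 called 3 nuclear members in the mPFC of males, all higher after SNI (1.67% of all genes were called), and 0 members in each of the other 3 groups. A replicate block in edgeR gave 5 members in the mPFC of males, 4 higher and 1 lower. The block with GC correction gave 3 there and 1 in the mPFC of females, all higher. The share of all genes called under the block is not given beside these counts, so they are not read as a result on the members. Without the low-count filter, edgeR called 13 members in the mPFC of females, of which 9 were mitochondrial and higher, and 5 in that of males, and 3 and 1 in the ACC of females and males. The shares of all genes were then 2.19%, 2.01%, 1.38% and 0.0347% in that order. The smallest edgeR adjusted p-values of members in the male mPFC were 0.183 for Cox6a1 (0.24), 0.202 for the synthase subunit Atp5d (0.17) and 0.208 for Cox8a (0.16).

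The nuclear medians stayed near 0, at 0.01 (females) and 0.03 (males) in the mPFC and at -0.001 (females) and -0.07 (males) in the ACC. The mitochondrial medians in the mPFC were 0.42 for females and 0.04 for males, whereas those in the ACC were -0.05 and -0.38. When a library was left out, the first ran from 0.29 (without female SNI mPFC replicate 3) to 0.74 (without female sham mPFC replicate 3). The second ran from -0.07 (without male sham mPFC replicate 2) to 0.12 (without male SNI mPFC replicate 3). The male ACC median ran from -0.47 (without male SNI ACC replicate 3) to -0.27 (without male SNI ACC replicate 1). In the female mPFC all 12 tested mitochondrial members had values above 0, and in the male ACC 10 of 12 had values below 0, without any passing the test. The 2 exceptions turned once reads of their copies were added, mt-Co2 from 0.18 to -0.23 and mt-Atp6 from 0.31 to -0.26, and mt-Co3 went from -0.79 to -0.21. With copies summed, the mitochondrial median was 0.40 in the female mPFC and -0.31 in the male ACC, and again 0 members were called. For mt-Nd3, the libraries of the female mPFC held 107, 112 and 184 CPM after sham and 155, 227 and 253 CPM after SNI, which overlap (log2 difference 0.65, SE 0.19, adjusted p = 0.401). In the male ACC it stood at 221, 222 and 165 CPM after sham and at 121, 135 and 169 CPM after SNI, which overlap as well (-0.52, SE 0.14, adjusted p = 0.768). In both cases 1 sham library lay within the SNI range, and it is a library whose GC slope differs from that of its group: female sham mPFC replicate 3 (slope -0.047, against 0.162 and 0.161) and male sham ACC replicate 3 (0.157). Without female sham mPFC replicate 3, 22 members and 15.9% of all genes were called in the female mPFC, and without male sham ACC replicate 3, 18 members and 13.5% of all genes were called in the male ACC.

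The same GC trend ran through the genes outside the list. The rank correlation of GC content with the SNI difference over all other genes (n = 16570 to 16873) was -0.60 for females and 0.32 for males in the mPFC, and -0.01 for females and 0.52 for males in the ACC. With GC content corrected, the mitochondrial median went from 0.42 to 0.20 in the female mPFC and from -0.38 to -0.18 in the male ACC. With length corrected too it was 0.08 and -0.12. In the male mPFC every tested mitochondrial member moved upward with GC content corrected, and most lay farther from 0. There mt-Co1 went from 0.06 to 0.12 and mt-Nd5 from 0.03 to 0.10, whereas mt-Co2 went from -0.30 to -0.24, none of them called. In the female mPFC, mt-Nd4 went from 0.27 to -0.003 and mt-Co1 from 0.13 to -0.05, mt-Cytb from 0.67 to 0.49 and mt-Co2 from 0.76 to 0.57, none of them called. In the male ACC, mt-Co1 went from -0.14 to 0.01, and mt-Nd3 was at -0.30 with an adjusted p of 0.617.

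**Figure D5:**
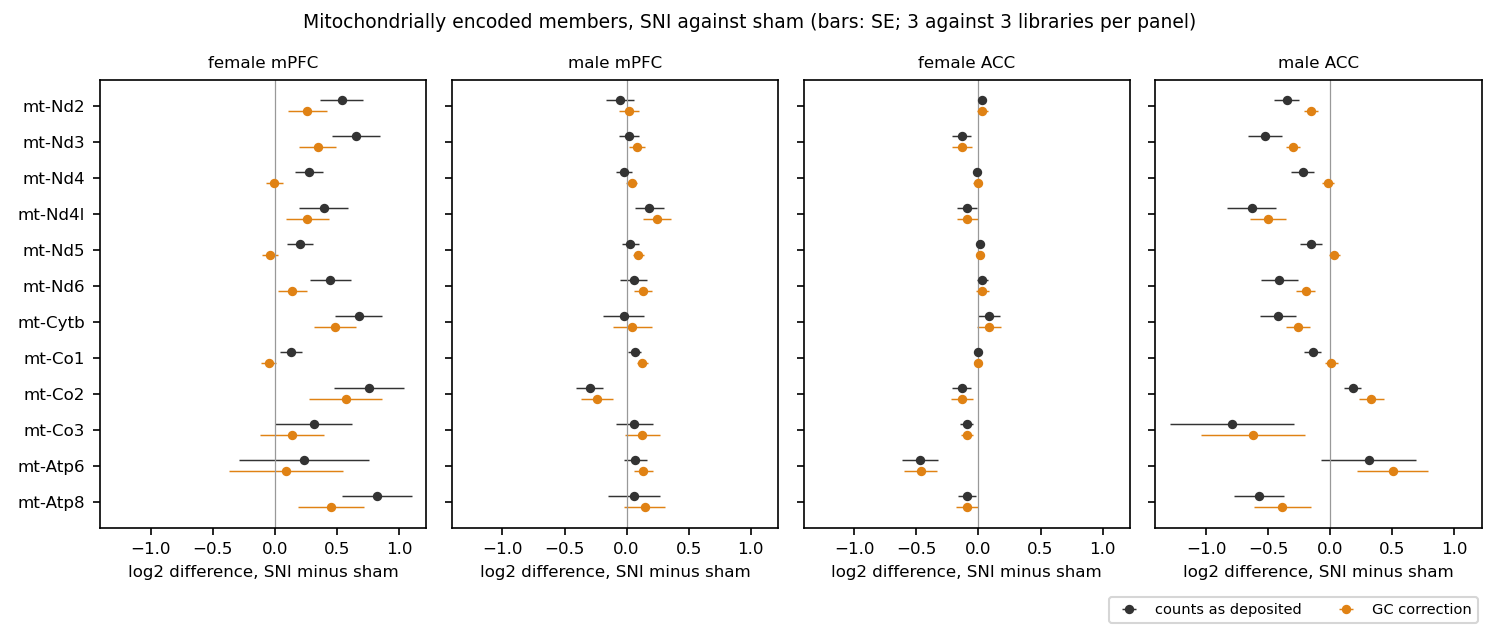
Log2 difference (SNI minus sham) with its SE for the 12 tested mitochondrial members in each group of 3 against 3 libraries, from the counts as deposited (dark) and after the GC correction (orange). The dark points lie above 0 in the female mPFC (median 0.42) and mostly below 0 in the male ACC (median -0.38). In these groups the orange medians are nearer to 0 (0.20 and -0.18). Even so, mt-Co2 and mt-Atp6 lie farther above 0 in the male ACC, where both are below 0 with copies summed (-0.23 and -0.26). In the male mPFC each orange point lies above its dark one, such as mt-Co1 at 0.12 against 0.06.

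Both sexes combined gave the same count. In the fit of all 24 libraries, SNI against sham called 0 members in the mPFC and 0 in the ACC (0% of all genes in each), with 3 nuclear and 4 mitochondrial members at an unadjusted p under 0.05 in the mPFC, 7 nuclear and 2 mitochondrial ones in the ACC (8.67% and 5.92% of all genes at that threshold), and DESeq2 also called 0 members in each. Without the low-count filter, 11 members were higher after SNI in the mPFC, 10 of them mitochondrial (1.74% of all genes called), and 7 were lower in the ACC, 6 of them mitochondrial (0.737%). The region by SNI interaction, the test of whether the regions responded differently, called 0 members as well (0% of all genes; 11 nuclear and 8 mitochondrial members at an unadjusted p under 0.05, with 9.53% of all genes; 0 by DESeq2). Without the low-count filter it called 14 (1.78% of all genes), of which 11 were mitochondrial, all with positive values. Its mitochondrial median was 0.42, with 12 of 12 above 0, and its nuclear median 0.04. The mitochondrial value was 0.20 with GC content corrected and 0.14 without the 5 libraries. By complex, the interaction medians of the mitochondrial members were 0.42 for complex I, 0.49 for the single complex III member, 0.20 for complex IV and 0.50 for complex V, against 0.03, 0.05, 0.09 and 0.07 for the nuclear members of the same complexes and -0.03 for complex II.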

How the data were processed

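RNA was measured in 24 libraries of pooled mouse tissue. Per the submitters' processing notes, the authors used Trimmomatic 0.36, Bowtie2 2.33, HISAT2 2.1.0, HTSeq 0.9.1, edgeR 3.34.0 and GRCm38. The authors deposited raw counts, whole numbers of reads per Ensembl gene, in 4 tables, 1 per sex and region. The tables' columns carry treatment and replicate number, and the sex and region of a column come from its table. The strand mode of the counting is not given in the sources used here, so reads of overlapping antisense genes such as mt-Nd5 and mt-Nd6 cannot be told apart.

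Symbols, coordinates, GC content and lengths came from GENCODE vM21 (GRCm38), which matched all 33364 identifiers, with GC content for 33336. Tests used edgeR 4.0.16 in R 4.3.3: filterByExpr (count of 10, total of 15), TMM, and the quasi-likelihood F-test (legacy setting), with Benjamini-Hochberg adjustment over all genes tested. SNI and region were compared within each sex and condition on 6 libraries, and over all 24 libraries with 8 group terms. DESeq2 1.42.0, RLE scaling, no filter, mt- reads left out of library sizes, GC and length offsets (lowess, span 0.3), a replicate block and leaving out each library were the alternatives. Chosen after seeing the data were summing near-identical copies (BLAST 2.17.0, at least 95% identity over 150 bases), GC content of the main transcript form, and leaving out 5 libraries. The tests were also run on simulated data. Named genes are all mt- members, the 2 higher and 2 lower nuclear members with the smallest adjusted p per class over 24 libraries, tissue-restricted paralogues and members at the floor; other members named beside them were chosen after their values were seen. The values of 1 member that the rule would name are not reported here, and the member stays in the counts. The members and lists were chosen with earlier results of these data known. The labels do not say whether a replicate number marks a shared pool. The main fits treated the libraries as independent.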

Additional observations from a re-analysis of the deposited data

Results flagged for a closer look

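Uqcrfs1, the Rieske protein of complex III, had opposite SNI differences in the 2 regions of the female mice, -0.0919 in the mPFC and 0.055 in the ACC. In each region the 3 SNI libraries all lay on one side of the 3 sham libraries. Every tested member was searched for such a pattern, between the regions in each sex and between the sexes in each region. No other member showed it. The share of all genes with such a pattern was not counted, so it is not known whether the members differ from other genes in this. Neither value was called, and the difference between the regions in female mice was not tested on its own. The region by SNI interaction over both sexes called no member.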

How the results depend on the processing

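Of the counts of members called, 108 of 124 stayed within 1.5 times the main count under the alternatives. Fits that left out 1 library are counted apart. Many of the 108 are SNI counts that were 0 and stayed 0, for which such a limit says little. A count within the limit can also hold other members. Of 43 members called between the regions in female sham mice, the GC correction kept 30. Of 24 in male SNI mice, GC and length kept 17. Counts outside the limit follow, and where no cause is named, the cause was not tested. For the mPFC against the ACC in male sham mice the main count of 6 became 23 with the GC correction, 24 with GC content of the main form, 31 with GC and length, 26 with the replicate block and GC correction, and 12 without the low-count filter. The counts of SNI comparisons, 0 on the deposited counts, were without the low-count filter 13 (female mPFC), 5 (male mPFC), 3 (female ACC), 1 (male ACC), 11 (mPFC of both sexes), 7 (ACC of both sexes) and 14 (interaction). In the male mPFC, DESeq2 gave 3, the replicate block 5 and the block with GC correction 3, and in the female mPFC the block with GC correction gave 1. The block counts stand without the share of all genes called. The block changed no other count by over 1.5 times. Libraries with the same replicate number had weakly correlated deviations from their group means (correlations of -0.23 to 0.19). Such values cannot show whether these libraries came from the same mice. Leaving out 1 library gave 44 to 53 for the region over 24 libraries, 28 to 53 in female sham, 22 to 42 in female SNI, 1 to 21 in male sham and 13 to 31 in male SNI mice. For SNI it gave 0 to 22 in the female mPFC, 0 to 1 in the male mPFC, 0 to 0 in the female ACC, 0 to 18 in the male ACC, 0 to 1 in the mPFC and 0 to 0 in the ACC of both sexes, and 0 to 1 for the interaction. A called value reversed: mt-Co2 in the region comparison, 0.73, was -0.0822 with copies summed, which adds the reads of Gm28661. Of the values of single members, 335 kept direction and side of the threshold, 17 gained and 16 lost a call, and 5 that were never called changed sign, among them mt-Nd4l with copies summed (0.12). Cox7b2, Cox8b and Cox8c, at under 3 reads per library on average, could not be compared at this depth, and mt-Nd1 was not tested either.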
